A study of Mus musculus with 10 samples.

Results

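The matrix metalloproteinases (MMPs), the ADAMTS proteases, the ADAMTS-like proteins and the tissue inhibitors of metalloproteinases (TIMPs) were followed in mouse left atrium after aortic constriction. The members were every gene symbol made of Mmp, Adamts, Adamtsl or Timp and a number, with an optional a or b. This gave 51 of the 48397 symbols in the count tables, of which 23 were Mmp, 19 Adamts, 5 Adamtsl and 4 Timp genes. The TAC group had transverse aortic constriction, in which a ligature narrows the aortic arch so that the heart pumps against a raised pressure, and the Sham group had the operation without it. Both groups were wild-type mice operated at 2 months of age and sampled 2 weeks later, with 5 libraries each, and the series' design text adds that they were males of the C57BL/6J strain. The sources differ on the tissue (left atrium or left appendage) and on the library kit, and nothing says that each library came from a separate mouse, so p-values measure the spread between these libraries, which may be technical.

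MMPs and ADAMTS proteases are zinc enzymes that cut proteins of the extracellular matrix. MMPs are made as inactive precursors and cut collagen, gelatin and many other substrates, while ADAMTS enzymes trim procollagens and cleave large proteoglycans such as versican and aggrecan. ADAMTS-like proteins lack the catalytic domain and bind the matrix, many of them at fibrillin microfibrils. TIMPs bind the active site of MMPs, and Timp3 also inhibits several ADAMTS enzymes and sits bound to the matrix. In the heart these genes are known for their part in matrix turnover under pressure load.

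Total counts over genes ran from 17117306 to 43956384 in sham and from 29493200 to 41358617 in TAC. Sham replicates 1 and 2 were the shallowest. The atrial myosin light chain gene Myl7 stood at 8276 to 9606 CPM (counts scaled to a common library size) in sham and 1287 to 3433 in TAC. The 3 ventricular markers (Myl2, Myl3 and Irx4) summed to 19.6 to 539 CPM in sham and 15.5 to 325 in TAC, with sham replicate 5 (539 CPM) and TAC replicate 5 (325 CPM) the highest. Myl2 stood at 218 CPM beside 319 CPM of Myl3 in sham replicate 5 and 10.1 CPM beside 315 CPM in TAC replicate 5. All levels below are CPM scaled by TMM factors, with mean ± SD over 5 libraries, and fold changes, given also as log2 ratios with their standard error (SE), are TAC over sham. These are bulk samples, in which fewer cells of a type and less RNA per cell cannot be told apart.

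Most of the tested members differed between the groups, and more were higher than lower after TAC. Of the 51 members, 40 passed the filter on low counts. Among these, 26 were higher and 7 lower in TAC at an adjusted p under 0.05 (edgeR, adjusted over all 15175 genes tested). Over all tested genes 56.8% were called in either direction, 28.9% higher and 27.9% lower. The median log2 fold change was 1.05 over the 40 tested members and 0.01 over all tested genes. The levels of the groups did not overlap for 25 members, 19 of them higher and 6 lower in TAC, while 41.7% of all tested genes had no overlap, 21.5% higher and 20.2% lower. Of the members called higher, 20 differed by at least 2-fold and 9 by at least 4-fold, and of those called lower 5 differed by at least 2-fold. The filter let 5 members (Adamts16, Adamts20, Mmp3, Mmp12 and Mmp13) through on their TAC libraries, as fewer than 5 sham libraries reached the filter's level, so these could be tested because they were higher in TAC. When libraries were scaled by their size alone, 31 members were higher and 6 lower, while 7741 of all 15175 tested genes were higher and 1929 lower, and the median of all tested genes moved by 0.36 on the log2 scale. Changes are given relative to TMM scaling.

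**Figure D1:**
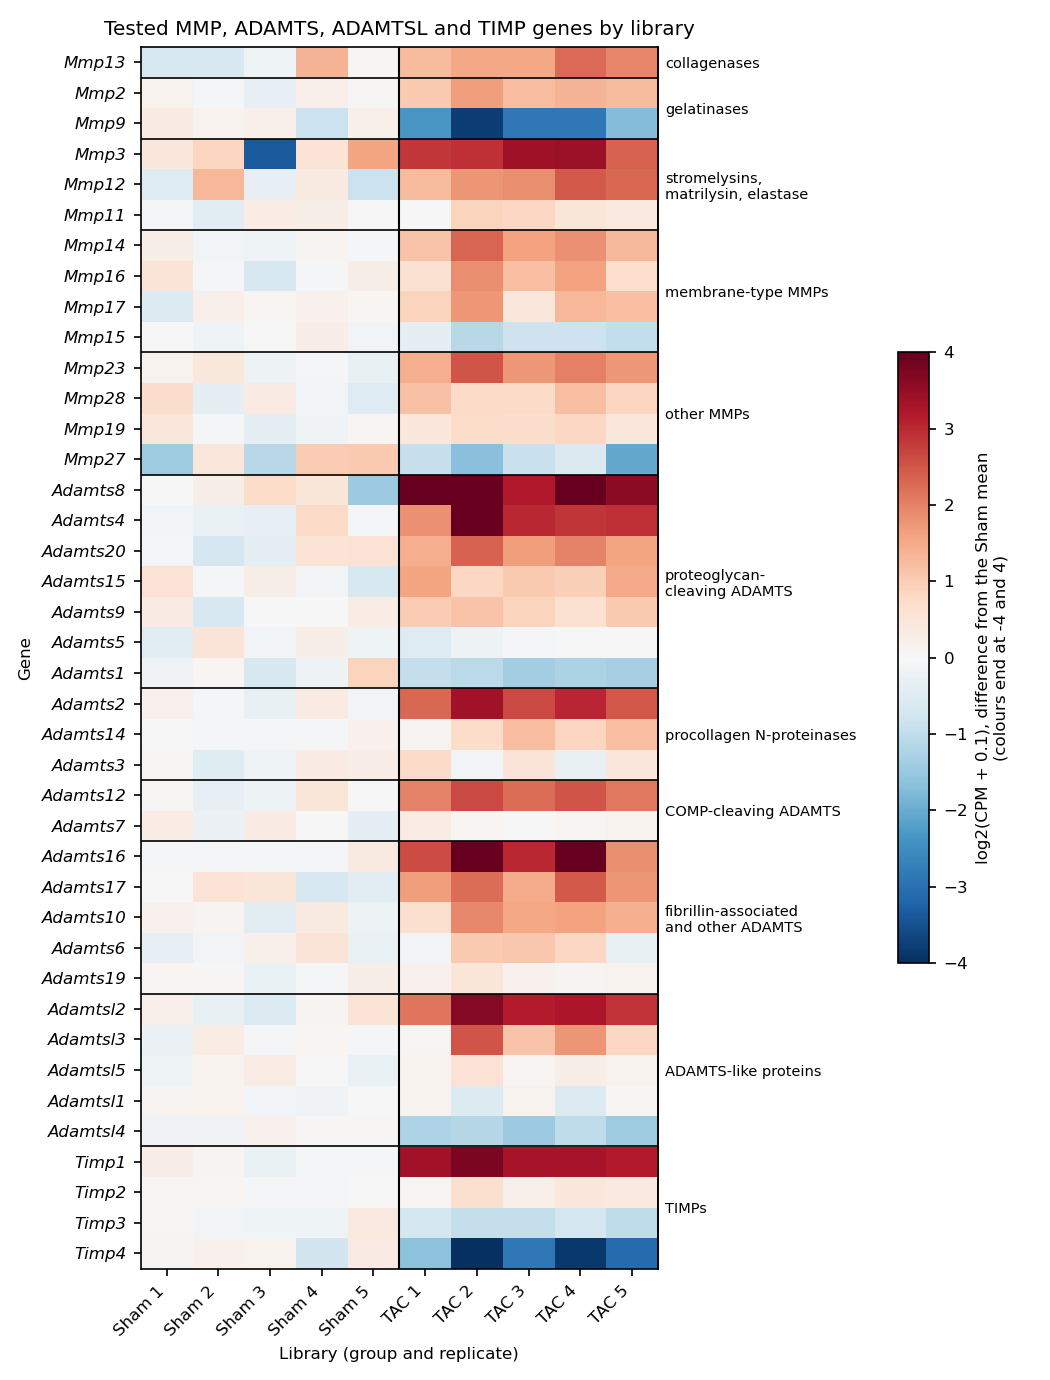
Heat map of the 40 tested genes (rows, grouped by role) in the 10 libraries (columns). Colour is log2(CPM + 0.1) minus its mean over the 5 sham libraries, red above and blue below, with the ends of the scale at -4 and 4. Adamts8, Timp1 and Adamtsl2 are red in every TAC library, Timp4 and Mmp9 are blue, and Mmp3 stands apart in sham replicate 3.

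The 4 inhibitors split. Timp1 and Timp2 were higher and Timp3 and Timp4 lower in TAC. Timp1 (chromosome X, 20870166 to 20874735 on GRCm38, inside the Syn1 gene) encodes a soluble inhibitor that many cell types induce on injury. It stood at 6.02, 5.37, 4.07, 4.77 and 4.73 CPM in sham replicates 1 to 5 and at 51.2, 68.8, 49.2, 49.5 and 45.9 CPM in TAC replicates 1 to 5. Every TAC library was far above every sham library, and TAC replicate 2 was the highest. The rise was 10.7-fold (log2 ratio 3.42 with SE 0.14, adjusted p = 6.3e-08), and the log2 fold change stayed between 3.32 and 3.78 over 21 alternative fits. Timp2, which also takes part in activating pro-MMP2 at the cell surface together with Mmp14, had 369.6, 379.8, 345, 344 and 362 CPM in sham and 378, 563, 419, 483 and 471 CPM in TAC (chromosome 11, 118301069 to 118355740). TAC replicate 1 lay within the range of the sham libraries and the other TAC libraries lay above it. The difference was 1.29-fold (log2 ratio 0.36 with SE 0.11, adjusted p = 0.011).

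Timp3 (chromosome 10, 86300372 to 86349506, inside the Syn3 gene) had 585, 524, 501, 501 and 735 CPM in sham. In TAC it had 343, 289, 292, 347 and 276 CPM, below every sham library. It fell 1.84-fold (log2 ratio -0.88 with SE 0.12, adjusted p = 1.1e-04). In the annotation 21.3% of its exonic bases are shared with Syn3 on the other strand, and the strand setting of the counting is not given in the sources used here. Timp4 (chromosome 6, 115241892 to 115252205, inside the Syn2 gene), an inhibitor with high expression in the heart, showed the largest relative fall of the 4, from 50.3, 53.2, 52.0, 28.1 and 58.4 CPM to 15, 1.64, 6.45, 3.17 and 5.46 CPM (7.59-fold, log2 ratio -2.92 with SE 0.49, adjusted p = 4.9e-04). Sham replicate 4 was the lowest sham library and TAC replicate 1 the highest TAC library, and they did not overlap. Over 21 alternative fits the log2 ratio ran from -3.52, without TAC replicate 1, to -2.59, with adjusted p up to 0.0041. Adipocytes also express Timp4, and adipocyte markers moved in this tissue, where 28.9% of all tested genes were higher and 27.9% lower. Of the 5 adipocyte markers 3 were lower (Adipoq, Plin1 and Cidec) and Fabp4 was higher in TAC, with Pparg not called, and their summed level was 151 to 215 CPM in sham and 179 to 295 in TAC. Plin1, which coats lipid droplets, went from 7.25 ± 4.54 to 0.476 ± 0.597 CPM, and the sham library with the most Plin1 (replicate 2, 14.7 CPM) had 53.2 CPM of Timp4, within the range of the others. The part of adipocytes in the fall of Timp4 was not tested.

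**Figure D2:**
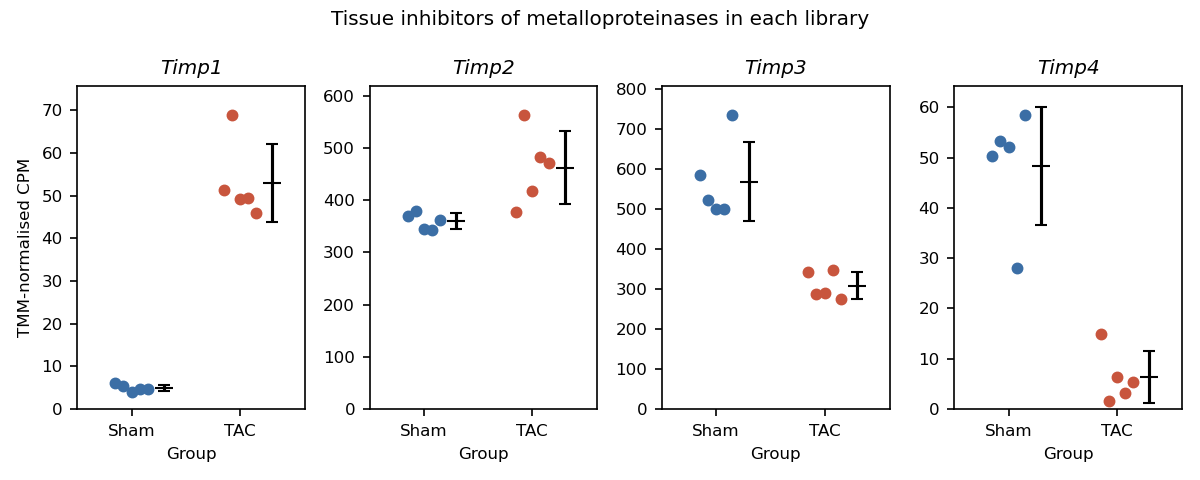
TMM-normalised CPM (y axis, from 0) of Timp1, Timp2, Timp3 and Timp4 in the 5 sham and 5 TAC libraries (points), with mean and SD beside them. The groups do not overlap for Timp1, Timp3 and Timp4, while the TAC library with the least Timp2 (378 CPM) lies within the sham range.

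Counted per kb of exon, which allows levels of different genes to be compared, the make-up of the TIMP pool changed. Timp3 made up 39.5% ± 3.55 of the summed TIMP level in sham and 17.7% ± 2.79 in TAC (SD, n = 5). Timp1 made up 3.2% ± 0.439 and 27.3% ± 2.33. Timp2 stayed the main inhibitor transcript, at 52.7% ± 3.50 and 54.5% ± 3.63. In sham libraries the level of Timp3 per kb was 10.6 to 17.0 times that of Timp1, and in TAC libraries 0.457 to 0.764 times. The order of these 2 inhibitors was thus turned round in every TAC library.

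The 2 gelatinases, which cut denatured collagen and basement membrane collagen, went in opposite directions. Mmp2 (chromosome 8, 92827291 to 92853420), the gelatinase of fibroblasts and other stromal cells, had 156, 134, 111, 163 and 145 CPM in sham and 289.7, 450.1, 333, 359 and 336 CPM in TAC. Each TAC library lay above each sham library, and the rise was 2.50-fold (log2 ratio 1.32 with SE 0.13, adjusted p = 1.1e-05). Mmp9 (chromosome 2, 164940780 to 164955850), the gelatinase that neutrophils and macrophages release, had 6.70, 5.88, 6.08, 2.89 and 6.15 CPM in sham and 0.971, 0.299, 0.651, 0.646 and 1.53 CPM in TAC. The groups did not overlap although sham replicate 4 lay well below the other sham libraries. The fall was 6.69-fold (log2 ratio -2.74 with SE 0.38, adjusted p = 9.6e-05). Of 9 neutrophil markers, 3 passed the filter and were higher in TAC (Csf3r, S100a8 and S100a9), the 9 summed to 0.831 to 3.92 CPM in sham and 4.70 to 11.4 in TAC, and the defining marker Ly6g was at 0 in every library but TAC replicate 5. Fewer than 5 sham libraries of S100a8 and S100a9 reached the filter's level, so these could be tested because they were higher in TAC. Over all tested genes 28.9% were higher. The 8 macrophage markers were higher, and summed to 301 to 526 CPM in sham and 736 to 1218 in TAC. The part of these cells in the level of Mmp9 was not tested.

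Membrane-type MMPs are anchored at the cell surface. Of the 6, 3 were higher, 1 was lower and 2 did not pass the filter. Mmp14 (chromosome 14, 54431612 to 54445364), the activator of pro-MMP2, had 29.7, 23.4, 22, 27.1 and 24.0 CPM in sham and 55.9, 127, 76.6, 89.4 and 61.3 CPM in TAC, with no overlap. It rose 3.26-fold (log2 ratio 1.70 with SE 0.21, adjusted p = 4.7e-05). Mmp15 (chromosome 8, 95352268 to 95375080), another membrane-type enzyme, fell from 219, 195, 224, 268 and 205 CPM to 169, 102, 124, 124 and 111 CPM (1.77-fold, log2 ratio -0.82 with SE 0.14, adjusted p = 3.2e-04). TAC replicate 1 was the highest TAC library and still below the sham libraries. Mmp16 and the glycolipid-anchored Mmp17 were low and rose, Mmp16 from 2.16 ± 0.646 to 5.18 ± 1.97 CPM (log2 ratio 1.28 with SE 0.29, adjusted p = 0.0028) and Mmp17 from 1.79 ± 0.349 to 4.11 ± 1.36 CPM (log2 ratio 1.19 with SE 0.25, adjusted p = 0.0015). Mmp24 had 4 counts in the 5 sham libraries together and 54 in the 5 TAC libraries, and Mmp25 had 9 and 72. Per kb of exon, Mmp15 and Mmp2 had nearly the same level in sham (41.1 ± 5.17 and 42.0 ± 6.06 CPM per kb), whereas in TAC Mmp2 stood at 105 ± 17.7 and Mmp15 at 23.3 ± 4.75 CPM per kb.

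The collagenases, macrophage elastase and the stromelysins other than Mmp11 lie together on chromosome 9. The 10 Mmp genes between positions 7272514 and 7699585 (GRCm38) span 427 kb, and most were barely detected in the atrium. Mmp1a, Mmp1b and Mmp20 had no count in any library, Mmp7 and Mmp10 had 1 count each, and Mmp8, the neutrophil collagenase, had 6 counts in sham and 62 in TAC. The 4 that were tested were Mmp3, Mmp12, Mmp13 and Mmp27. Mmp3, stromelysin 1, which cuts proteoglycans and can activate other pro-MMPs, had 3.35, 4.60, 0.152, 3.69 and 7.62 CPM in sham and 18.5, 19.5, 27.4, 28.6 and 13.4 CPM in TAC. It rose 5.58-fold (log2 ratio 2.48 with SE 0.58, adjusted p = 0.0039). Over 21 alternative fits the log2 ratio ran from 2.14, without sham replicate 3, to 3.14, with limma voom, and adjusted p reached 0.021. The groups did not overlap, and sham replicate 3 was nearly without Mmp3. Mmp13, the main rodent interstitial collagenase, had 0.124, 0.128, 0.213, 0.799 and 0.263 CPM in sham and 0.740, 0.922, 0.918, 1.59 and 1.24 CPM in TAC. Sham replicate 4 was above the lowest TAC library, so the groups overlapped, and the difference was 3.16-fold (log2 ratio 1.66 with SE 0.45, adjusted p = 0.0083). Over the alternative fits that tested Mmp13, its log2 ratio ran from 1.30 to 2.46, with adjusted p up to 0.044. The highest was without sham replicate 4. Mmp12, macrophage elastase, was at 0.0750 to 0.703 CPM in sham and 0.671 to 1.64 in TAC (log2 ratio 2.17 with SE 0.49, adjusted p = 0.0025). Mmp27 differed the other way, with 0.497, 2.11, 0.638, 3.14 and 3.19 CPM in sham and 0.740, 0.399, 0.770, 0.969 and 0.290 CPM in TAC (log2 ratio -1.61 with SE 0.53, adjusted p = 0.022). Its groups overlapped, and its call was lost in 6 of 20 alternative fits, among them the fits without sham replicate 4 (adjusted p = 0.06), sham replicate 5 (0.059), TAC replicate 2 (0.052) and TAC replicate 5 (0.051).

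**Figure D3:**
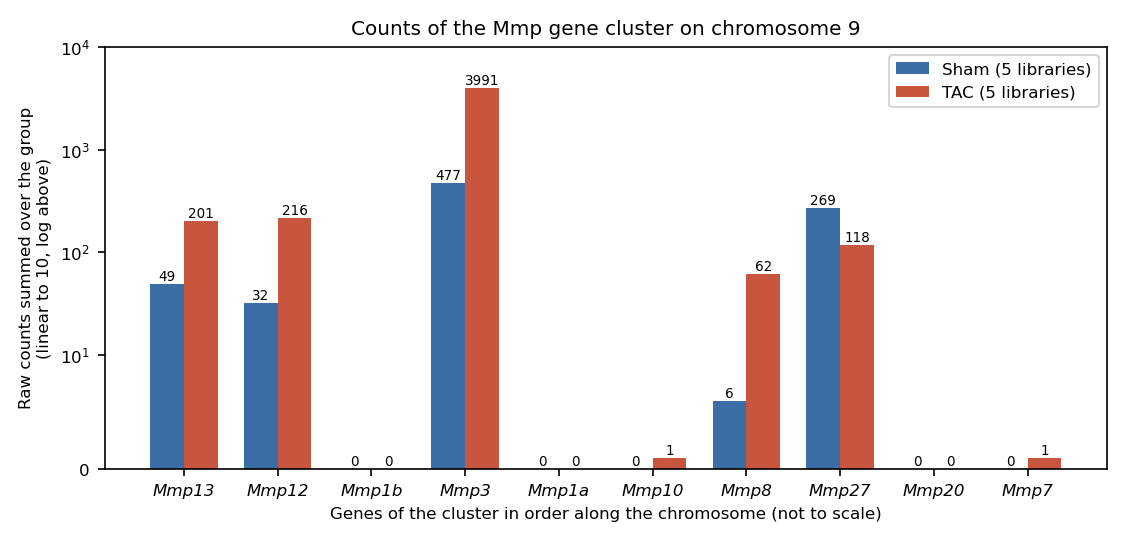
Raw counts summed over 5 libraries per group (y axis, linear to 10 and logarithmic above, from 0) for the 10 Mmp genes of the chromosome 9 cluster, in their order on the chromosome. Mmp3 holds most of the cluster's counts (477 in sham, 3991 in TAC), and 5 of the 10 genes have at most 1 count in each group.

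Promoter windows of the cluster were compared with those of the other members. Windows from 250 bases before to 50 bases after each gene's start (RefSeq, GRCm38.p6) matched 36 of the 51 members, and the 250 upstream bases were searched on both strands. TGANTCA, the site named for the transcription factor AP-1, occurred upstream of 8 of the 10 cluster genes (8 of their 12 windows) and of none of the other 26 matched members, against 6.75% of all 32851 windows. Mmp2, Mmp9, Adamts4 and Adamts8 were among the members without a window and were not searched. TATAAA occurred in 58.3% of the cluster's windows, in 11.1% of the other members' windows and in 12.4% of all windows. The 120 bases before a start are shown for the 4 tested cluster genes, because 3 of them hold TGANTCA in a window and Mmp27 does not. TGANTCA and TATAAA are in capitals. The stretches are at chr9:7272394-7272513, chr9:7347254-7347373, chr9:7445702-7445821 and chr9:7571276-7571395, each on the plus strand. For Mmp12 the second of 2 RefSeq starts is shown, which lies downstream of the first exon of a longer transcript. The window of the first start (chr9:7344147-7344446) holds no TGANTCA, so for Mmp12 the match depends on the start shown.
Mmp13: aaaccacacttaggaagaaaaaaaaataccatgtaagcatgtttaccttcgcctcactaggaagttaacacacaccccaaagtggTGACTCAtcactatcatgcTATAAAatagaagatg
Mmp12: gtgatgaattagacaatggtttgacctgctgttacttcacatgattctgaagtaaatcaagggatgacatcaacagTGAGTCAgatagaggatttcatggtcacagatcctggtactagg
Mmp3: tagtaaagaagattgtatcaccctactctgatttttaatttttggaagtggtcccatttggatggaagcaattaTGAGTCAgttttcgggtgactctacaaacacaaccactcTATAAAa
Mmp27: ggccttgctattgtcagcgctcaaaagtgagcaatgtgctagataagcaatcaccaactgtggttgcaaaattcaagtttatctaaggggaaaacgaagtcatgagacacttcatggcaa
The TGANTCA match begins 35, 44 and 46 bases before the start in Mmp13, Mmp12 and Mmp3, and neither motif is in the stretch of Mmp27. The site is also upstream of Mmp1a, Mmp1b, Mmp7, Mmp10 and Mmp20, which had at most 1 count in each group. Mmp8, like Mmp27, had no TGANTCA in its window. A match describes these letters and does not show that a factor binds there.

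Of 15 genes of transcription factors known for MMP promoters, 4 were higher and 10 lower in TAC, where 28.9% of all tested genes were higher and 27.9% lower. The AP-1 genes Fos, Fosb, Fosl1, Fosl2, Jun, Junb and Jund were among the lower ones, for example Jun, which fell from 195 ± 54.1 to 44.8 ± 7.45 CPM (log2 ratio -2.12 with SE 0.18, adjusted p = 4.3e-06). In the PEA3 group of ETS factors, the family to which Etv1, the gene in the series' title, belongs, Etv4 rose from 0.288 ± 0.195 to 5.04 ± 1.78 CPM (log2 ratio 4.06 with SE 0.42, adjusted p = 1.4e-05) and Etv5 from 13.0 ± 2.84 to 37.9 ± 3.70 CPM (log2 ratio 1.54 with SE 0.14, adjusted p = 5.8e-06). Etv1 fell from 21.7 ± 3.74 to 13.6 ± 1.82 CPM (log2 ratio -0.68 with SE 0.13, adjusted p = 0.001). Etv4 passed the filter through its TAC libraries, as sham replicate 2 had 0 CPM of it. AGGAAG, the core of the PEA3 site, was upstream of 13 of the 36 matched members (35.9% of member windows and 29.5% of all windows). Among the TIMP genes AGGAAG was upstream of Timp1 and of Timp3 and Timp4, which fell, but not of Timp2, which rose. Its part in these changes was not tested. The Timp1 promoter holds it at 2 places, shown in capitals in the 200 bases before the start (chrX:20869966-20870165, plus strand). Timp1 is shown because it is the inhibitor with the largest rise.
Timp1: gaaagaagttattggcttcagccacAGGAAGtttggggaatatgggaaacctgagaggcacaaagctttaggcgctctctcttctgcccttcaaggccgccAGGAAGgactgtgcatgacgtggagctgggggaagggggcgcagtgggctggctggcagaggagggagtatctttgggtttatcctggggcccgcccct

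The other MMPs were mostly low and rose. Mmp23 (chromosome 4, 155650655 to 155653384), a membrane-tethered member that lacks the usual cysteine switch, had 13.5, 16.6, 10.7, 11.5 and 9.94 CPM in sham and 33.5, 71.0, 40.9, 50.1 and 41.1 CPM in TAC, with every TAC library above the sham libraries. It rose 3.82-fold (log2 ratio 1.93 with SE 0.21, adjusted p = 2.0e-05). Mmp28, or epilysin, went from 5.56 ± 2.05 to 10.4 ± 1.62 CPM (log2 ratio 0.91 with SE 0.22, adjusted p = 0.0042), without overlap. In the annotation 12.0% of its exonic bases are shared with an antisense gene. Mmp19 went from 4.30 ± 0.933 to 6.64 ± 0.799 CPM (log2 ratio 0.64 with SE 0.16, adjusted p = 0.005), with overlapping groups, and 28.3% of its exonic bases lie under antisense genes. Mmp11, stromelysin 3, went from 7.30 ± 1.43 to 10.5 ± 2.54 CPM (log2 ratio 0.52 with SE 0.19, adjusted p = 0.033). That call was lost in 6 of 21 alternative fits, among them those without sham replicate 1, 2 or 5 or TAC replicate 2 or 3 (adjusted p from 0.061 to 0.081). Mmp21 had 2 counts in sham and none in TAC.

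Among the 7 ADAMTS proteases that cleave versican and aggrecan, 5 were higher, Adamts1 was lower and Adamts5 was not called. Adamts8 (chromosome 9, 30942562 to 30963838) had 42.2, 49.2, 70.8, 58.9 and 15.5 CPM in sham and 809.7, 703, 392, 665 and 504 CPM in TAC. It rose 13.0-fold (log2 ratio 3.70 with SE 0.37, adjusted p = 1.4e-05), and TAC replicate 3, the lowest of its group, was still above every sham library. Sham replicate 5 had the least Adamts8 of the sham libraries. In the annotation 10.6% of its exonic bases are shared with the antisense gene Gm29724. Its neighbour Adamts15, which starts 20.1 kb away on the opposite strand, had 42.2, 27.2, 33.1, 25.9 and 17.9 CPM in sham and 85.0, 50.3, 57.7, 54.1 and 80.2 CPM in TAC, again without overlap (2.24-fold, log2 ratio 1.17 with SE 0.22, adjusted p = 0.001).

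Adamts1 (chromosome 16, 85793827 to 85803113) encodes a versican-cleaving enzyme and was the ADAMTS transcript with the highest mean level per kb of exon in sham. It had 181, 211, 128, 172 and 368 CPM in sham and 102, 93.5, 75.3, 82.2 and 78.5 CPM in TAC, which is 2.46-fold lower (log2 ratio -1.30 with SE 0.24, adjusted p = 8.4e-04). The TAC libraries lay close together and below the sham libraries, among which replicate 5 was far the highest. Sham replicate 5 was also the library with the highest summed ventricular markers. TAC replicate 5, the second highest for these markers, had 78.5 CPM of Adamts1, within the 75.3 to 102 CPM of the TAC libraries. The part of ventricular tissue in the level of Adamts1 was not tested. Without sham replicate 5 the log2 fold change of Adamts1 was -1.01 (adjusted p = 2.0e-04). Adamts5, a main aggrecanase of cartilage, 53.1 kb from Adamts1 on chromosome 16, was at 27.4 to 54.0 CPM in sham and 26.3 to 38.2 in TAC and was not called (log2 ratio -0.18 with SE 0.17, adjusted p = 0.39). Its log2 fold change was 0.19 under library size scaling.

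Adamts4, the other well known aggrecanase, was scarce in sham. It had 0.435, 0.383, 0.365, 0.876 and 0.450 CPM there and 1.97, 11.9, 4.56, 4.11 and 4.30 CPM in TAC, a 10.2-fold rise (log2 ratio 3.35 with SE 0.49, adjusted p = 1.5e-04) without overlap. TAC replicate 2 stood well above the others, and without it the log2 fold change was 2.85. Adamts9 rose from 15.7 ± 3.78 to 29.7 ± 3.96 CPM (log2 ratio 0.92 with SE 0.16, adjusted p = 5.9e-04) and the scarce Adamts20 from 0.289 ± 0.148 to 1.22 ± 0.360 CPM (log2 ratio 2.00 with SE 0.35, adjusted p = 4.9e-04), both without overlap. In the annotation 12.0% of the exonic bases of Adamts9 are shared with antisense genes. Of the summed ADAMTS level per kb of exon, Adamts1 made up 41.5 to 76.4% in sham libraries and 6.87 to 9.15% in TAC libraries, whereas Adamts8 made up 3.69 to 26.4% and 54.7 to 72.1%. The leading ADAMTS transcript was therefore Adamts1 in the sham libraries and Adamts8 in the TAC libraries.

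The procollagen N-proteinases remove the amino-terminal propeptide of fibrillar collagens. Adamts2 (chromosome 11, 50602084 to 50807573), the chief enzyme for collagen I, had 51.6, 43.5, 37.0, 57.6 and 42.3 CPM in sham and 225, 469, 286, 383 and 257 CPM in TAC. It rose 6.98-fold (log2 ratio 2.80 with SE 0.21, adjusted p = 2.3e-06), and each TAC library was above every sham library. Adamts14 was at 1.09 to 1.31 CPM in sham and 1.27 to 2.90 in TAC, overlapping by 1 library (log2 ratio 0.93 with SE 0.23, adjusted p = 0.0049). Adamts3, which also processes the lymphatic growth factor VEGF-C, was at 5.88 to 10.5 CPM in sham and 6.67 to 14.1 in TAC and was not called (adjusted p = 0.30). Of the collagen substrates, Col1a1 rose from 179 ± 24.0 to 1293 ± 692 CPM and Col3a1 from 457 ± 107 to 3431 ± 1107 CPM.

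Of the 2 enzymes that cleave cartilage oligomeric matrix protein (COMP), Adamts12 rose and Adamts7 was not called. Adamts12 had 2.48, 1.92, 2.10, 3.40 and 2.40 CPM in sham and 9.78, 15.7, 11.7, 14.4 and 10.7 CPM in TAC (5.01-fold, log2 ratio 2.32 with SE 0.19, adjusted p = 2.9e-06), with a clear gap between the groups. Adamts7 was at 9.46 to 15.3 CPM in sham and 12.0 to 14.9 in TAC (log2 ratio 0.09 with SE 0.14, adjusted p = 0.62), and Comp itself was not called (adjusted p = 0.57). Adamts10, which binds fibrillin, rose from 14.0 ± 2.92 to 38.8 ± 11.1 CPM (log2 ratio 1.47 with SE 0.22, adjusted p = 1.8e-04), and its relative Adamts6 was at 2.05 to 3.76 CPM in sham and 2.11 to 5.68 in TAC and not called (adjusted p = 0.12). Adamts17 rose from 1.30 ± 0.497 to 5.10 ± 1.51 CPM (log2 ratio 1.99 with SE 0.29, adjusted p = 1.4e-04), without overlap, and Adamts19 was at 16.4 to 23.2 CPM in sham and 21.1 to 27.3 in TAC (adjusted p = 0.10). Adamts16 was all but absent from sham, with 1 count in the 5 libraries against 327 in TAC. In TAC it ranged from 0.290 CPM in replicate 5 to 4.83 CPM in replicate 2. The ratio of counts per effective library size was 225, with an exact 95% interval from 40.1 to 8914 that covers counting error only. TAC replicate 2 held 194 of the 327 counts. The edgeR fit, whose log2 ratio depends on its prior count, gave 7.21 (adjusted p = 5.2e-04), 6.32 without TAC replicate 2 and 8.80 without sham replicate 5, which held the 1 sham count (adjusted p = 3.0e-04 and 0.0075). Adamts13, the von Willebrand factor protease made mainly in liver, had 1 count in each group, and Adamts18 had 2 and 7.

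The 5 ADAMTS-like genes split as well. Adamtsl2 (chromosome 2, 27079379 to 27108981), a fibrillin-binding protein linked to TGF-beta availability, had 24.6, 17.3, 14.7, 23.4 and 31.6 CPM in sham and 95.8, 277, 189, 204 and 160.1 CPM in TAC. It rose 8.29-fold (log2 ratio 3.05 with SE 0.29, adjusted p = 1.0e-05) with no overlap. Adamtsl4 (chromosome 3, 95676201 to 95687917), another fibrillin-binding member, had 105, 105, 128, 120.04 and 118 CPM in sham and 48.5, 52.2, 42.0, 57.1 and 43.0 CPM in TAC. Its libraries varied little within a group, and it fell 2.37-fold (log2 ratio -1.25 with SE 0.10, adjusted p = 2.4e-06). Adamtsl3 had 5.65, 8.24, 6.35, 7.01 and 6.53 CPM in sham and 7.12, 38.6, 15, 23.0 and 12.0 CPM in TAC (log2 ratio 1.5 with SE 0.38, adjusted p = 0.0057). TAC replicate 1 was within the sham range and replicate 2 far above, so the TAC libraries differed widely among themselves. Adamtsl1 (13.0 to 16.0 CPM in sham and 9.79 to 15.9 in TAC, adjusted p = 0.53) and Adamtsl5 (54.5 to 80.0 CPM in sham and 69.5 to 98.7 in TAC, adjusted p = 0.11) were not called. Fibrillin 1, to which several of these proteins bind, rose from 97.2 ± 26.1 to 483 ± 194 CPM.

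**Figure D4:**
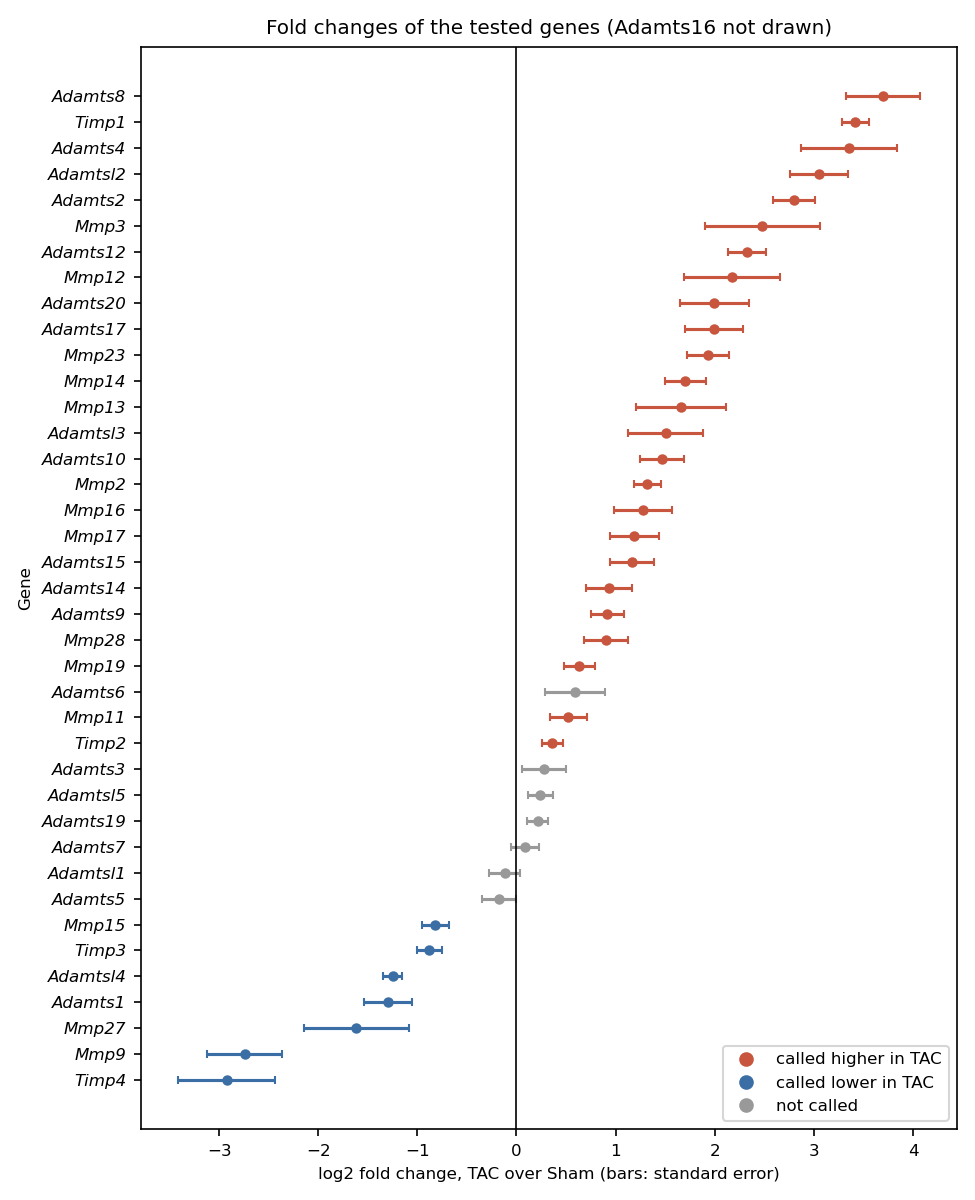
log2 fold change of TAC over sham (x axis) with its standard error for 39 of the 40 tested genes (y axis), ordered by size. Adamts16, with 1 count in sham, is not drawn. Red points are the other 25 genes called higher, blue points the 7 called lower and grey points the 7 not called, from Timp4 at -2.92 to Adamts8 at 3.70.

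Levels per kb of exon (union of exons in GENCODE M21) placed Timp2 and Timp3, but not Timp1 and Timp4, on top in sham. Timp2 (92.4 ± 3.98 CPM per kb) and Timp3 (69.9 ± 12.1) led there, followed by Mmp2, Mmp15 and Adamts1 (40.0 ± 17.3), which did not differ among themselves beyond their spread. In TAC, Adamts8 (133 ± 36 CPM per kb), Timp2 (119 ± 18.0) and Mmp2 (105 ± 17.7) led, with ranges of 1 SD that overlapped. Timp1 followed at 59.6 ± 10.2, from 5.62 ± 0.829 in sham. Summed over members, MMP transcripts stood at 91.0 to 118 CPM per kb in sham libraries and 161 to 227 in TAC libraries. ADAMTS transcripts stood at 58.2 to 90.8 and 155 to 249, and TIMP transcripts at 160.0 to 198 and 199 to 258. The ratio of MMP plus ADAMTS to TIMP transcripts per kb was 0.912 to 1.16 in sham libraries and 1.66 to 2.03 in TAC libraries. Adamts8 alone went from 10.3 ± 4.51 to 133 ± 36 CPM per kb within these sums, so the ratio is not a measure of all members alike. These sums are a description of transcript levels and carry no test.

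**Figure D5:**
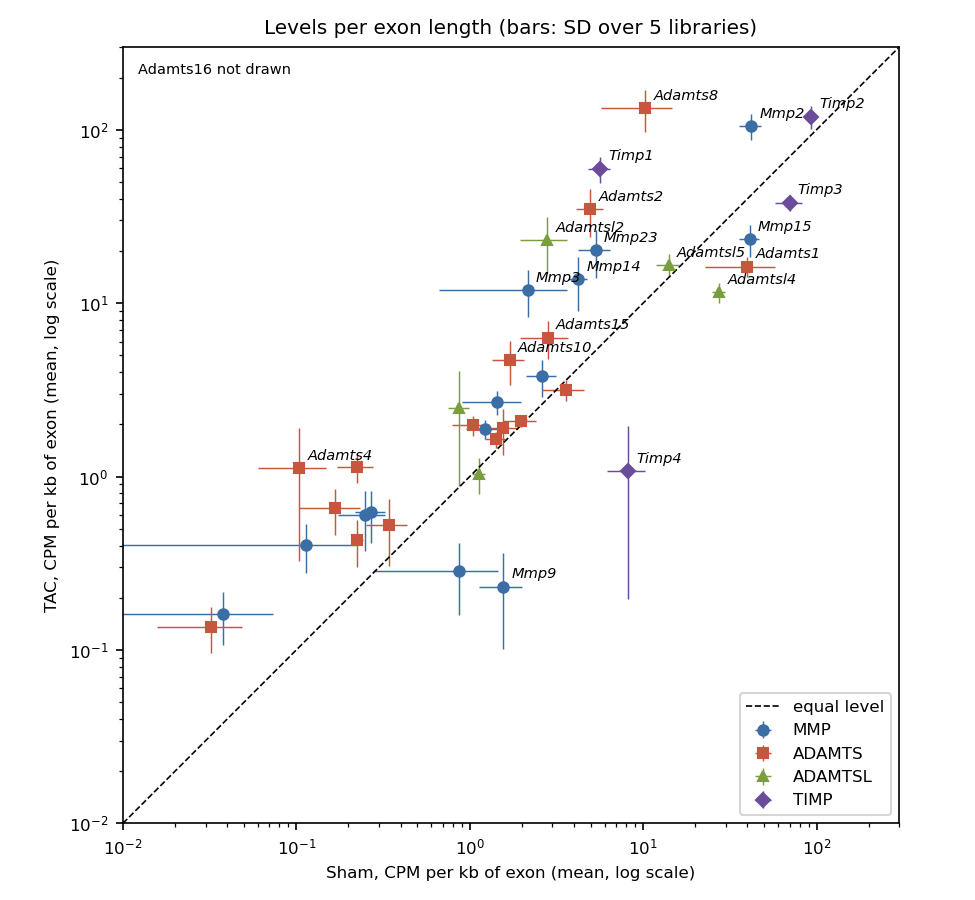
Mean level per kb of exon in sham (x axis) and TAC (y axis), both on log scales, for 39 tested genes. Bars are the SD over 5 libraries and run off the axis where the mean minus the SD lies below its lower limit. Points above the dashed line are higher in TAC. Adamts8 and Timp1 lie far above it and Timp4 and Mmp9 far below.

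The TAC libraries were not alike. For 17 of the 26 members called higher, TAC replicate 2 had the highest level, and for 17 of the 26 TAC replicate 1 had the lowest. Col1a1 was also lowest in TAC replicate 1 (615 CPM) and highest in TAC replicate 2 (2367 CPM). The 7 activated fibroblast markers, 5 of which were higher in TAC, summed to 132 to 237 CPM in sham and 653 to 1822 in TAC, with TAC replicate 2 the highest, whereas the 8 general fibroblast markers (4 higher, 2 lower) summed to 4495 to 6404 CPM in sham and 4320.0 to 8152 in TAC. Cardiomyocyte markers summed to 83575 to 98877 CPM in sham and 44165 to 57512 in TAC, with 8 of 9 lower. The part of these shifts in the levels of the proteases and inhibitors was not tested. Beside these marker counts, 28.9% of all tested genes were higher and 27.9% lower. Of the activated fibroblast markers, Cthrc1 passed the filter through its TAC libraries. Without TAC replicate 2, 25 members were higher and 6 lower. Over all genes, leaving out 1 library gave 4136 to 4602 higher and 3762 to 4224 lower.

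Other genes linked to these proteases were measured by fixed lists, whose names are used below. Their counts of calls stand beside 28.9% higher and 27.9% lower over all tested genes. Some of the genes counted as higher passed the filter only through their TAC libraries. Of 10 tested activators 5 were higher and 1 lower, so that their share called in either direction was near the 56.8% of all tested genes. Furin, the convertase that activates membrane-type MMPs and ADAMTS enzymes, rose from 192 ± 12.2 to 387 ± 79.5 CPM (log2 ratio 1.01 with SE 0.13, adjusted p = 5.4e-05), and so did its relative Pcsk5 (log2 ratio 1.19 with SE 0.15, adjusted p = 4.7e-05) and the plasminogen receptor gene Plgrkt (log2 ratio 0.73 with SE 0.09, adjusted p = 3.5e-05). Pcsk6, another convertase, was the lower one (log2 ratio -0.71 with SE 0.14, adjusted p = 0.0013). Bsg, which encodes the MMP inducer basigin, was not called (adjusted p = 0.27). Of 8 tested genes on the list of inhibitors other than TIMPs, 6 were higher and 1 lower. Not all genes on this list are inhibitors of MMPs or ADAMTS enzymes. A2m, a broad protease trap, rose from 0.116 ± 0.0675 to 2.61 ± 1.05 CPM (log2 ratio 4.52 with SE 0.45, adjusted p = 1.0e-05). No sham library of A2m reached the filter's level, so it could be tested because it was higher in TAC. Cst3, or cystatin C, an inhibitor of cysteine proteases, rose from 624 ± 24.7 to 1164 ± 274 CPM (log2 ratio 0.90 with SE 0.15, adjusted p = 3.4e-04). Spock2, a matrix proteoglycan, fell from 145 ± 22 to 78.3 ± 15.9 CPM. Reck, the membrane-anchored MMP inhibitor, was not called (adjusted p = 0.65).

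Of the 13 cofactors, receptors and clearance genes 9 were higher and 1 lower, again beside 28.9% and 27.9% over all tested genes, which hold also for the next 2 lists. Pcolce, the enhancer of procollagen C-proteinase, rose from 71.6 ± 6.38 to 209.8 ± 19.5 CPM (log2 ratio 1.55 with SE 0.09, adjusted p = 5.1e-07), Fbln2, a basement membrane protein, rose from 118 ± 11.1 to 318 ± 43.0 CPM, Cd63, a binding partner of TIMP1, rose from 107 ± 9.25 to 185 ± 19.4 CPM, and Fbln1, a cofactor of ADAMTS1, fell from 318 ± 32.5 to 242 ± 47.4 CPM (log2 ratio -0.39 with SE 0.13, adjusted p = 0.023). Lrp1, which clears MMPs, ADAMTS enzymes and TIMPs from outside the cell, was not called (adjusted p = 0.99). Of 13 tested ADAM and astacin family genes, not all of which encode active proteases, 9 were higher and 1 lower. Adam12 (log2 ratio 3.53 with SE 0.31, adjusted p = 5.1e-06) and Bmp1, the procollagen C-proteinase (log2 ratio 1.55 with SE 0.13, adjusted p = 3.4e-06), led the higher ones. Adam11 was the lower one (log2 ratio -2.34 with SE 0.15, adjusted p = 7.7e-07). Of 20 tested substrates 17 were higher and 2 lower, with the basement membrane collagens Col4a1 (log2 ratio 2.39 with SE 0.19, adjusted p = 2.6e-06) and Col4a2 (log2 ratio 2.18 with SE 0.16, adjusted p = 1.6e-06) among the smallest adjusted p. Versican (Vcan) rose from 39.3 ± 7.67 to 127 ± 52.5 CPM (log2 ratio 1.69 with SE 0.27, adjusted p = 3.2e-04), and Reln, a substrate of Adamts3, fell from 6.90 ± 1.67 to 2.64 ± 0.475 CPM (log2 ratio -1.38 with SE 0.20, adjusted p = 1.1e-04). By list, the median log2 fold changes were 0.58 for activators, 0.99 for inhibitors, 0.64 for cofactors, 0.57 for ADAM and astacin family genes, 2.35 for substrates and -0.66 for the transcription factors.

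The 11 members that did not pass the filter were Adamts13, Adamts18, Mmp1a, Mmp1b, Mmp7, Mmp8, Mmp10, Mmp20, Mmp21, Mmp24 and Mmp25. For the 3 with no count in any library the depth allows a level of up to 0.0231 CPM in sham and 0.0159 CPM in TAC (3 counts over the 5 libraries, for counting error only). With no filter on low counts, Mmp8, Mmp24 and Mmp25 were called higher in TAC (adjusted p = 0.0054, 0.0051 and 0.0087). Mmp1a and Mmp1b are close copies, so their counts of 0 are uncertain.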

How the data were processed

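RNA was sequenced in bulk from left atrium in 5 Sham and 5 TAC mouse libraries, grouped by their labels. The authors deposited raw counts per gene symbol, 1 table per library without a header. STAR, bcl2fastq and build mm10 are named without versions in the submitters' processing notes, while the counter, its strand setting and, for these tables, the annotation were not given in the sources used here. The 5 closing tallies of each table name no gene, held 25.9% to 29.1% of all entries and stayed out of the tests.

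All 15175 genes passing filterByExpr were fitted with edgeR 4.0.16 in R 4.3.3 (TMM factors, robust quasi-likelihood F test, group as the one term, Benjamini-Hochberg adjustment). The standard error is the log2 fold change divided by the square root of F. Full statistics are for the TIMPs, Mmp2, Mmp9, Mmp14 and up to 4 called members a role with the largest level or change. From each pathway list the rule named up to 3 called genes with the smallest adjusted p and 1 of the rarer direction, and a gene of these lists is not reported here. Bsg, Reck, Lrp1, Col1a1, Comp, Fbn1, Vcan, Etv1, Plin1 and the remaining AP-1, adipocyte and neutrophil genes were named after their values were seen, as were the other members given full statistics. Members and lists were chosen with earlier results of these data known. Same-numbered sham and TAC libraries did not deviate together (correlations from -0.04 to 0.08). On simulated data for this comparison with 14689 genes tested, 83, 60 and 57 genes were changed by 1.5-fold, 2-fold and 4-fold. Of these, 41.0%, 65.0% and 96.5% were recovered, and 9 of the 137 calls were false. Far fewer genes changed there than the 8616 called in the data, so these shares do not carry over to the data. Coordinates, exon lengths and overlaps are from GENCODE M21 (GRCm38, also called mm10), which held all 51 members, and promoter windows from RefSeq (GRCm38.p6). Alternatives were other scalings, filters and tests (limma 3.58.1 voom, DESeq2 1.42.0), a replicate block and each library left out. Leaving out both shallow sham libraries was added after seeing the data.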

Additional observations from a re-analysis of the deposited data

Results flagged for a closer look

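In 9 of 80 groups checked (40 genes in 2 groups), the highest or lowest library stood apart from the other 4 by more than Dixon's 95% limit of 0.71 of the range. Chance gives about 1 in 20 such groups. Sham replicate 4 accounted for 4 of them and TAC replicate 2 for 3. Adamts16 was at 0.0375 CPM in sham replicate 5, above the 0 of the other sham libraries, a value that is 1 count. Adamts19 was at 27.3 CPM in TAC replicate 2, above the 21.1 to 22.4 CPM of the other TAC libraries. Adamts4 was at 0.876 CPM in sham replicate 4, above the 0.365 to 0.450 CPM of the other sham libraries. Adamts4 was at 11.9 CPM in TAC replicate 2, above the 1.97 to 4.56 CPM of the other TAC libraries. Mmp13 was at 0.799 CPM in sham replicate 4, above the 0.124 to 0.263 CPM of the other sham libraries. Mmp17 was at 1.18 CPM in sham replicate 1, below the 1.85 to 2.04 CPM of the other sham libraries. Mmp9 was at 2.89 CPM in sham replicate 4, below the 5.88 to 6.70 CPM of the other sham libraries. Timp1 was at 68.8 CPM in TAC replicate 2, above the 45.9 to 51.2 CPM of the other TAC libraries. Timp4 was at 28.1 CPM in sham replicate 4, below the 50.3 to 58.4 CPM of the other sham libraries. In sham replicate 4 the macrophage markers summed to 526 CPM, above the 301 to 374 CPM of the other sham libraries, and their part in these values was not tested.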

How the results depend on the processing

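Across 21 alternative fits 31 of the 33 called members kept their direction and call wherever they were tested, the exceptions being Mmp11 and Mmp27. Adamts16, Adamts20, Mmp12, Mmp13 and Mmp27 were not tested under 1 filter, at least 1 CPM in 5 libraries. Library size as the only scaling gave 7741 genes higher and 1929 lower over all tested genes, and a member median log2 fold change of 1.41. Under it the log2 fold changes of Adamts5 (0.19) and Adamtsl1 (0.24) changed sign, neither of them called. Leaving out 1 library gave 25 to 28 members higher and 6 to 7 lower, 4136 to 4602 and 3762 to 4224 over all genes, and a member median from 1.01 to 1.22. Adamts7, not called, ranged from -0.0017 without sham replicate 5 to 0.17. With the replicate block, 26 members were higher and 6 lower (4103 and 3917 genes, member median 1.05), and the call of Mmp27 was lost (adjusted p = 0.089). The numbers were shared by libraries of separate groups and are not stated to pair them. Without both shallow sham libraries 27 members were higher and 7 lower. The counts over all genes in that fit are not given here. In the main fit 28.9% of all tested genes were higher and 27.9% lower. The causes of these differences were not tested. Members under about 1 CPM rest on few reads per library, and their fold changes are imprecise.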
